A study of Caenorhabditis elegans with 2 samples.

Results

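Candidate regions of eGFP-NHR-12 were examined at the small non-coding RNA genes of the nuclear genome of Caenorhabditis elegans. A region was taken as lying at such a gene when its summit, as the deposited lists give it, was within 500 bp of an annotated tRNA, snoRNA, snRNA, miRNA or rRNA gene. In replicate 1, 318 of 13846 nuclear regions met this rule, and in replicate 2, 495 of 23768 did. The annotation holds 1368 such genes among 46890 nuclear genes. The rule used positions only, so the signal of the regions was free to vary.

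The study immunoprecipitated chromatin from whole animals at the third larval stage (L3), of mixed sex, in 2 biological replicates. The strain, OP318, carries the unc-119(ed3) mutation on chromosome III and the transgene wgIs318, which codes for eGFP joined to the nuclear hormone receptor NHR-12. Both replicates form 1 group, no untagged or input sample was analysed here, and regions from many tissues of the animal are mixed. No comparison between conditions was therefore possible, and the values below set regions or genes against other regions or genes of the same list, with no test.

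Small non-coding RNA genes are short, and many are transcribed at a high rate. RNA polymerase III transcribes tRNA genes from promoter elements inside the gene, the A box and the B box, as well as 5S rRNA and some snRNA genes, while RNA polymerase II transcribes the spliced leader RNAs, most other snRNAs and miRNA precursors, and RNA polymerase I the large rRNA precursor. In nematodes a spliced leader is joined to the start of most messenger RNAs by trans-splicing. SL1 is used at the first gene of an operon and at most single genes, and SL2 at the downstream genes of operons, where it separates the messages of a polycistronic transcript. snoRNAs guide the modification of rRNA, and miRNAs repress messenger RNAs that match their seed.

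The spliced leader RNA genes are shown first because the highest-ranked regions at any small RNA gene in replicate 1 lay at SL2 RNA genes. The sequences are read 5′ to 3′ on the gene's strand from the RefSeq WBcel235 (ce11) genome, with the leader, all bases before the GT of the splice donor, in capitals. sls-2.1 (chrII:5844865-5844974), sls-2.2 (chrII:5543598-5543707) and sls-2.3 (chrII:5544164-5544273, minus strand) carry the same leader, sls-2.14 (chrIII:11090412-11090523, minus strand) and sls-2.5 (chrIII:7140447-7140553, minus strand) carry variants of it, and sls-1.10 (chrV:17120694-17120791, minus strand) is an SL1 RNA gene.
sls-2.1: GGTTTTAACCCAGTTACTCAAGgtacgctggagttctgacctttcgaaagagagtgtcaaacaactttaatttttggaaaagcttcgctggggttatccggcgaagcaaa
sls-2.2: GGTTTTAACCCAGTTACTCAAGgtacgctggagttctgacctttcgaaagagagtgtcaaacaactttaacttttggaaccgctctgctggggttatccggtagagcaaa
sls-2.3: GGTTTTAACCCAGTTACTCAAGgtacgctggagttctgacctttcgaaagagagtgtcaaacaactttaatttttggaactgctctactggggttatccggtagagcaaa
sls-2.14: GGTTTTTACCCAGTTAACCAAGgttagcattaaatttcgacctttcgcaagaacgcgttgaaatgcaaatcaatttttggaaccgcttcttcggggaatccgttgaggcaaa
sls-2.5: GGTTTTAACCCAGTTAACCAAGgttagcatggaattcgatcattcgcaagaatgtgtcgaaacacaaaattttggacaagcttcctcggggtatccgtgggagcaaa
sls-1.10: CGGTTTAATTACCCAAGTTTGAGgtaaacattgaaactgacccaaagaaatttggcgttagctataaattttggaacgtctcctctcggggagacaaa

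The tRNA and snoRNA genes below and mir-52 are among those with high-ranked regions in both replicates, and mir-84, with lower ranks, is shown for the seed it shares with let-7. In the tRNA-Arg gene C18A11.t2 (chrX:8036685-8036757, minus strand) and the tRNA-Gln gene R04A9.t1 (chrX:410391-410462), capitals mark GTTCNANNC, letters found in the B box. In the snoRNA genes F55A11.10 (chrV:11782992-11783082) and C51F7.3 (chrV:12303708-12303783), capitals mark TGATGA, the core of the C box of box C/D snoRNAs. In mir-52 (chrIV:14034008-14034107) and mir-84 (chrX:16022404-16022478, minus strand), capitals mark the seed (bases 2 to 8) of the mature miRNA that RefSeq lists first for the gene.
C18A11.t2: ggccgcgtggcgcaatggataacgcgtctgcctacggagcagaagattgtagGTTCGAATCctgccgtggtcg
R04A9.t1: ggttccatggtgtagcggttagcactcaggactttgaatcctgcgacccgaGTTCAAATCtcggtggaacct
F55A11.10: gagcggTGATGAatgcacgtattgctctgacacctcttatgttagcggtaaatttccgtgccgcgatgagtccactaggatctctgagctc
C51F7.3: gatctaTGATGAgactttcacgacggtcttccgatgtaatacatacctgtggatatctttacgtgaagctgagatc
mir-52: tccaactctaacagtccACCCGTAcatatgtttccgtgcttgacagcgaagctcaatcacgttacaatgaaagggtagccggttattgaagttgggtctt
mir-84: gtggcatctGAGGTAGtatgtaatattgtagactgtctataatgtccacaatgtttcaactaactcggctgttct

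Before the results, the nature of the lists has to be stated. They hold peaks and background alike, from which the authors' irreproducible discovery rate (IDR) step selects, and most regions had a high deposited q-value. At small RNA genes the median q was 0.871 in replicate 1 and 0.848 in replicate 2, against 0.906 and 0.886 at other nuclear regions. In replicate 1, q was under 0.05 at 4 small RNA regions and at 14 other regions. In replicate 2 it was under 0.05 at 0 regions of either kind, and the lowest q at a small RNA region was 0.0968. The summit was the midpoint of the region in 13875 of 13876 regions of replicate 1 and in all 23791 of replicate 2, with regions up to 400 bp and of 416 bp wide, so positions are coarse. Read depth is unknown, since no list holds counts.

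Both replicates reached the small RNA genes less often than nuclear genes in general, which are longer, and more often than other genes of up to 200 bp. Of the 1368 small RNA genes, 353 had a summit within 500 bp in replicate 1 (25.8%), against 27.0% of all nuclear genes, and 487 had one in replicate 2 (35.6%), against 39.4%. Both replicates reached 177 genes (12.9%, 95% exact Clopper-Pearson interval 11.2 to 14.8%), against 16.0% of all nuclear genes. The larger share over all genes contains long genes, around which the same window covers more sequence: protein-coding genes had a median length of 2027 bp and were reached by both replicates in 28.9% of cases. Among the 22238 other nuclear genes of up to 200 bp, of which 15363 are piRNA genes, 15.5% were reached in replicate 1, 24.4% in replicate 2 and 5.40% in both. Their median length was 21 bp, whereas the 5 small RNA biotypes had medians of 72 to 130 bp, so lengths were not matched. Genes annotated as ncRNA, with a median of 140 bp, were reached in 17.0% of cases in replicate 1, 26.8% in replicate 2 and 6.56% in both. A gene reached by both replicates need not hold a shared region, since the summits of the replicates can lie far apart in its window. The intervals here and below cover counting error only, and neighbouring genes that share a region are not independent.

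tRNA, snoRNA and snRNA genes were reached by both replicates at similar shares, and miRNA genes at a lower one. For tRNA genes, 182 of 612 were reached in replicate 1, 234 in replicate 2 and 85 in both (13.9%, 11.2 to 16.9%). For snoRNA genes the numbers were 86 of 346, 140 and 54 (15.6%, 11.9 to 19.9%), and for snRNA genes 25 of 129, 54 and 19 (14.7%, 9.11 to 22.0%). miRNA genes stood lower, with 60 of 261 in replicate 1, 58 in replicate 2 and 19 in both (7.28%, 4.44 to 11%), an interval that holds the 5.40% of other short genes. The intervals of tRNA, snoRNA and snRNA genes overlap each other and lie above 5.40%. They also hold the 16.0% of all nuclear genes, which are longer, whereas the miRNA interval lies below it. Of the 20 rRNA genes, 0 were reached in replicate 1, 1 in replicate 2 and 0 in both.

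**Figure D1:**
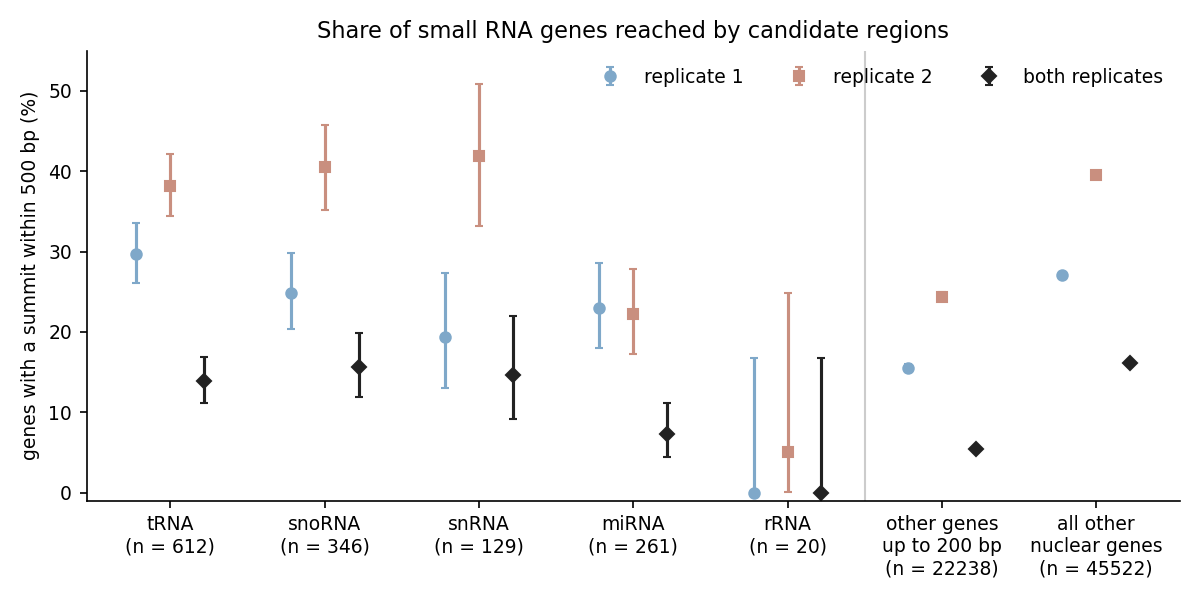
Percentage of genes with a summit within 500 bp (vertical axis) in replicate 1, in replicate 2 and in both, for the 5 small RNA biotypes, left of the line, and for 2 sets of other nuclear genes, right of it; bars are 95% exact Clopper-Pearson intervals. tRNA, snoRNA and snRNA genes sit between 13.9% and 15.6% in both replicates, above the 5.40% of other genes up to 200 bp. Their intervals hold the 16.1% of all other nuclear genes.

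Regions at small RNA genes took up more of each list than the sequence around these genes takes of the genome. The windows of 500 bp around the genes cover 1.33% of the nuclear genome and held 2.3% of the nuclear regions of replicate 1 and 2.08% of those of replicate 2. Their share grew with the strength of the signal. Among the 100 strongest nuclear regions, 13 lay at a small RNA gene in replicate 1 (13.0%, 7.11 to 21.2%) and 16 in replicate 2 (16.0%, 9.43 to 24.7%). Among the 500 strongest they numbered 39 (7.80%) in replicate 1 and 34 (6.80%) in replicate 2, and among the 1000 strongest 59 (5.90%) and 52 (5.20%).

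Seen from the regions, 59 of the 318 in replicate 1 were among its 1000 strongest (18.6%, 14.4 to 23.3%), against 941 of 13528 other nuclear regions (6.96%, 6.53 to 7.40%) and 7.22% of all nuclear regions. In replicate 2, 52 of 495 were (10.5%, 7.95 to 13.5%), against 948 of 23273 others (4.07%, 3.82 to 4.34%) and 4.21% of all. The median signal percentile, where 100 is the strongest nuclear region of a list, was 61.9 in replicate 1 (56.7 to 67.7) and 62.5 in replicate 2 (57.0 to 67.3), against 49.7 for other regions in each. Regions near piRNA genes had medians of 48.5 in replicate 1 and 50.4 in replicate 2, and regions at coding starts (500 bp or less) had 50.1 and 51.2. Neither kind of region had the percentiles seen at small RNA genes.

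The GC content of the sequence differed too, and its part in the ranks was not tested beyond the band below. GC content within 100 bp of the summit had a median of 39.3% in replicate 1 and 38.3% in replicate 2 at small RNA genes, against 34.8% and 35.3% at other regions. Within the band of 36 to 42% GC, the median percentile was 61.7 in replicate 1 (51.0 to 70.6) and 61.3 in replicate 2 (52.7 to 70.0) at small RNA genes, against 51.1 and 50.4 at other regions of that band. The interval of replicate 1 holds the 51.1 of the others, and that of replicate 2 lies above 50.4. The share among the 1000 strongest was 9.41% (4.15 to 17.7%) in that band in replicate 1, against 7.14% of other regions there, which its interval holds. In replicate 2 it was 10.1% (5.86 to 15.8%), against 4.38%. A protein-coding start lay within 500 bp of 25.5% of the small RNA regions in replicate 1 and 21.2% in replicate 2, against 25% of other regions in each. Without those, the medians were 64.0 in replicate 1 and 60.9 in replicate 2.

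The biotypes differed in strength and in how far the replicates gave the same picture. tRNA regions had median percentiles of 62.0 in replicate 1 (n = 159, 54.6 to 70.4) and 57.1 in replicate 2 (n = 227, 51.5 to 63.1). snoRNA regions had 61.5 (n = 87, 53.6 to 76.1) and 74.2 (n = 153, 64.5 to 81.3), and snRNA regions 83.0 (n = 26, 55.8 to 95.8) and 66.8 (n = 59, 46.1 to 74.4). miRNA regions had 53.3 (n = 50, 43.4 to 63.0) and 53.8 (n = 59, 44.5 to 71.0), intervals that hold the 49.7 of other regions. The snRNA interval of replicate 2 also holds 49.7, so of the 4 biotypes only tRNA and snoRNA lay above it in both replicates. Split by chromosome, the tRNA intervals lay above 49.7 on X and held it on autosomes in both replicates, as given below.

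**Figure D2:**
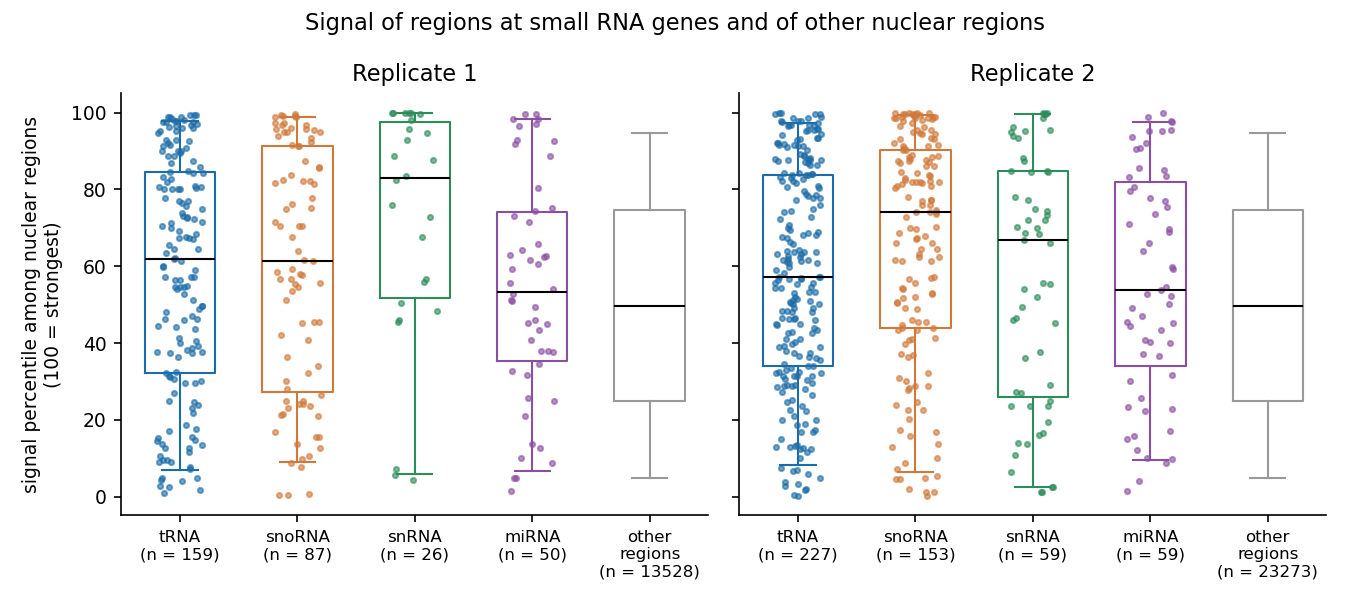
Signal percentile within each replicate's nuclear regions (vertical axis, 100 is the strongest) for regions at tRNA, snoRNA, snRNA and miRNA genes and, at the right, for all other nuclear regions; each point is 1 region, boxes give the quartiles and median, and whiskers the 5th and 95th percentiles. snRNA regions of replicate 1 (median 83.0) and snoRNA regions of replicate 2 (median 74.2) sit highest, and miRNA regions (53.3 and 53.8) closest to the others.

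Regions at small RNA genes recurred in the other replicate more often than other regions did. In replicate 1, 118 of the 318 had their summit inside a region of replicate 2 (37.1%, 31.8 to 42.7%), against 2847 of 13528 other regions (21.0%, 20.4 to 21.7%) and 21.4% of all nuclear regions. In replicate 2, 120 of 495 had theirs inside a region of replicate 1 (24.2%, 20.5 to 28.3%), against 2832 of 23273 others (12.2%, 11.8 to 12.6%) and 12.4% of all. By biotype the share of replicate 1 was highest for snRNA regions (16 of 26, 61.5%, 40.6 to 79.8%), followed by snoRNA (39 of 87, 44.8%), tRNA (54 of 159, 34.0%) and miRNA regions (10 of 50). Of the 6 sls-2 regions among these snRNA regions, 5 recurred. The interval of the miRNA share of replicate 1, up to 33.7%, holds the 21.0% of other regions. In replicate 2 the shares lay close together, at 27.1% for snRNA (16.4 to 40.3%), 26.1% for snoRNA and 24.7% for tRNA regions. For miRNA regions the share there was 16.9% (8.44 to 29.0%), an interval that holds the 12.2% of other regions. Among the 1000 strongest of replicate 1, 38 of 59 small RNA regions recurred (64.4%), against 284 of 941 others (30.2%).

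SL2 RNA genes held the 3 strongest small RNA regions of replicate 1. In replicate 2, sls-2.4 came after C18A11.t2 alone among small RNA genes, and the other SL2 genes ranked lower. At sls-2.4 the signal value, a score of the caller, was 53.5 in replicate 1, the rank of 2 among its nuclear regions, and 31.4 in replicate 2, the rank of 9. At sls-2.1 it was 36.6 in replicate 1 (rank 5) and 25.7 in replicate 2 (rank 27), and a second region of replicate 1 there had 28.7 (rank 12). These 3 regions of replicate 1 each had q under 0.05, at 0.0141, 0.0141 and 0.0370, whereas the same genes in replicate 2 had 0.158 and 0.0968. The other small RNA region with q under 0.05 in replicate 1, named after its values were seen, lay at the snRNA gene F38E11.10 (q of 0.0323, rank 18), whose best rank in replicate 2 was 7132. sls-2.2 and sls-2.3, which lie close together on opposite strands, shared 1 region in replicate 1 with a signal value of 23.1 (rank 51) and 1 in replicate 2 with 14.9 (rank 1173).

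Of the 18 annotated sls-2 genes, 6 were reached in both replicates, 14 in replicate 2 and the same 6 in replicate 1. sls-2.14 ranked 1723 in replicate 1 and 1472 in replicate 2, and sls-2.7 ranked 2434 and 18136. At sls-2.7 the summits lay on different sides of the gene, 401 bp before it in replicate 1 and 101 bp after it in replicate 2. The 8 genes reached in replicate 2 alone ranked between 1085 (sls-2.16) and 21175 (sls-2.17) there. sls-2.6, sls-2.9, sls-2.11 and sls-2.12 had no summit within 500 bp in either replicate. The 4 genes that carry the leader of sls-2.1, sls-2.1 to sls-2.4, were reached in both replicates in 4 of 4 cases, and the other 3 are 90.9 to 92.7% identical to sls-2.1 over their length. Of the 14 with another leader, 2 were, and the 8 genes reached in replicate 2 alone are also among these 14. sls-2.2 and sls-2.3 share a region, so the 4 genes with the leader of sls-2.1 are not independent. The counts are small and the difference between leaders was not tested. Over all nuclear genes, 16.0% were reached in both replicates. At the 18 genes, 67.3 to 100% of the 32-base words within 500 bp occur once in the genome.

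No SL1 RNA gene was reached. All 12 sls-1 genes had 0 summits within 500 bp in both replicates, which allows a share of up to 25% by the limit of 3 counts and up to 26.5% by the exact interval. They lie in a tandem array with 5S rRNA genes (chrV:17115903-17132107, 26 genes), in which neither list held a summit. The nearest summits lay 3876 bp before and 10006 bp after the array in replicate 1, and 6377 and 6928 bp in replicate 2. In the windows of the sls-1 genes only 0 to 27.9% of 32-base words occur once in the genome (median 4.03%), against a median of 94.3% at sls-2 genes and 91.4% of the whole genome. The absence of SL1 regions and the low share of unique sequence cannot be told apart, so the SL1 and SL2 genes are not set against each other.

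**Figure D3:**
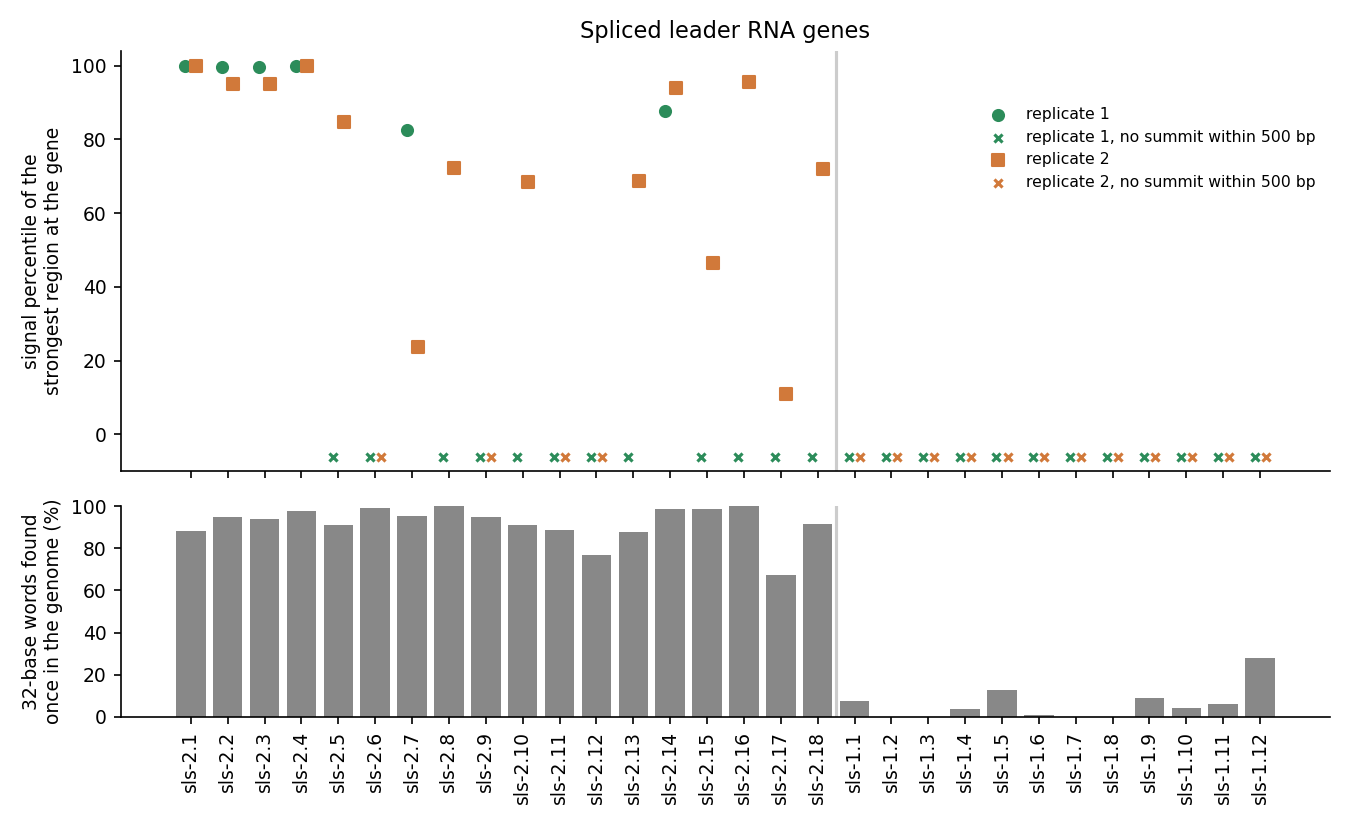
Upper panel, signal percentile of the strongest region within 500 bp of each spliced leader RNA gene in each replicate (crosses below 0 mark genes with no summit); lower panel, percentage of 32-base words in the gene and its 500 bp flanks that occur once in the genome. sls-2.1 to sls-2.4 sit at 95.1 or higher in both replicates, whereas the 12 sls-1 genes have no summit and 0 to 27.9% unique words.

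The rRNA genes also lie mostly in repeated sequence. The 4 genes of the large rRNA array on chromosome I (rrn-1.1 and rrn-1.2 for 18S, rrn-2.1 for 5.8S and rrn-3.1 for 26S rRNA) had 6.35 to 71.6% unique words and 0 summits in either list, and of the 16 annotated rrn-4 genes (5S rRNA) only rrn-4.16 was reached. Its region, 142 bp away, ranked 1412 in replicate 2, with a signal value of 14.4, and it is also the rRNA gene with the highest share of unique words (100%). Over all 5 biotypes, 61 genes had under 50% unique words, of which 2 were reached in replicate 1 and 1 in replicate 2, against 284 and 390 of the 1016 genes with 90% or more. Genes reached in both replicates and genes reached in neither had near-equal medians (95 and 94.9%). The part of unique sequence in the counts was not tested further.

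Among the 12 genes of SmY RNAs, small nematode RNAs found with the trans-splicing machinery, 2 were reached in both replicates (smy-1 and smy-2), 7 in replicate 2 and 2 in replicate 1. smy-1 and smy-2, which the annotation files as snRNA and snoRNA, shared a region that ranked 86 in replicate 2, while their regions in replicate 1 ranked 1569 and 461. By chromosome, snRNA genes were reached in both replicates in 2 of 16 cases on I, 8 of 16 on II, 2 of 13 on III, 3 of 41 on IV, 4 of 40 on V and 0 of 3 on X. The 40 on V include the 12 sls-1 genes, whose windows hold little unique sequence.

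tRNA genes are concentrated on X, and so were the tRNA regions. Of the 612 tRNA genes, 276 lie on X (34.1% of them reached in replicate 1 and 41.3% in replicate 2) and 336 on autosomes (26.2 and 35.7%). Both replicates reached 47 on X (17.0%, 12.8 to 22.0%) and 38 on autosomes (11.3%, 8.13 to 15.2%), shares whose intervals overlap. In replicate 1, 47.8% of tRNA regions lay on X, and in replicate 2, 46.7%, against 18% and 17.5% of regions away from small RNA genes. In strength, the X regions had median percentiles of 65.8 in replicate 1 (54.6 to 80.1) and 62.2 in replicate 2 (55.3 to 72.8). The autosomal ones had 56.3 (44.5 to 69.3) and 53.3 (46.6 to 61.7), intervals that hold the 49.7 of other regions and overlap those of X. Among the 1000 strongest of replicate 1 were 14 of 76 tRNA regions on X (18.4%, 10.5 to 29.0%), against 6.93% of other X regions, and 10 of 83 on autosomes (5.93 to 21.0%), an interval that holds the 6.96% of other autosomal regions. In replicate 2 they were 15 of 106 on X (14.2%, 8.14 to 22.3%), against 4.48% of other X regions, and 4 of 121 on autosomes (3.31%, 0.908 to 8.25%), an interval that holds the 3.99% of other autosomal regions. The intervals of X and autosomes overlap in replicate 1 and, narrowly, in replicate 2.

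The 5 tRNA genes with the best ranks in both replicates are all on X. C18A11.t2 (tRNA-Arg) ranked 92 in replicate 1 (signal value 21.3) and 5 in replicate 2 (36.9). R04A9.t1 (tRNA-Gln), which lies within hrg-11.4 on the other strand, ranked 329 (18.2) and 22 (26.8). T28B4.t1 (tRNA-Phe), within fbxl-4, ranked 296 (18.4) and 369 (17.4), and the pair R11.t1 and R11.t2 (tRNA-Tyr) shared a region that ranked 455 (17.5) and 244 (18.2). These 4 loci were within the 500 strongest of both lists. In replicates 1 and 2 the summits lay 155 and 249 bp beyond the end of C18A11.t2, and 426 and 389 bp before the start of R11.t2. At R04A9.t1, T28B4.t1 and R11.t1 they lay 8 to 69 bp from the gene. A protein-coding start lay within 500 bp of the replicate 2 summit at R04A9.t1. Identical genes were not all reached: of the 10 genes identical to C18A11.t2, all on X, 3 were reached in replicate 1 and 6 in replicate 2, and of the 15 identical to R04A9.t1, 6 and 9.

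GTTCNANNC, the B box letters, was present in 587 of the 612 tRNA genes (95.9%), in 97.6% of those reached in both replicates and in 96.1% of those reached in neither. On either strand within 100 bp of the summit it was found at 39.6% of tRNA regions in replicate 1 and 35.7% in replicate 2, against 7.01% and 6.99% of regions away from small RNA genes. The tRNA regions were chosen for lying near tRNA genes, most of which carry these letters. This difference therefore follows from the rule and says nothing about binding. The word CGCAGGGA had been found earlier at the X peaks of these data, and was looked for within 100 bp of summits on either strand. It was present at 1 of 76 X tRNA regions in replicate 1 (1.32%) and 2 of 106 in replicate 2 (1.89%), against 0.615% and 0.443% of other X regions, and at 0.188% and 0.181% of all nuclear regions. At the replicate 2 summit of C18A11.t2 the word occurs once on each strand, as the bases around that summit (chrX:8036336-8036536, plus strand, word in capitals) show.
C18A11.t2 summit: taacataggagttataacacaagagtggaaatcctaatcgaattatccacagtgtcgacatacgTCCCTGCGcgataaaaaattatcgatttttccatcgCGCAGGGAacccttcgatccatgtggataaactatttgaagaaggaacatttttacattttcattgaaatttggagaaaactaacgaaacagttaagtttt
Among the 1000 strongest regions it was present at 1 of 14 X tRNA regions in replicate 1 (7.14%), against 5.92% of other X regions, and at 1 of 15 in replicate 2 (6.67%), against 7.14%. Each of these tRNA shares rests on 1 region, that at C18A11.t2, so they cannot be told apart from the shares of other X regions. C18A11.t2 lies at an X peak of the optimal list and may be among the peaks that gave the word. Its presence there is therefore not an independent find.

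The hexamer AGGTCA or GGGTCA, letters that many nuclear receptors of other animals bind, lay within 50 bp of the summit, on either strand, at 16 of 318 small RNA regions in replicate 1 (5.03%) and 23 of 495 in replicate 2 (4.65%), against 3.84% and 3.72% of other regions and 3.86% and 3.74% of all nuclear regions. At the snRNA regions it was found at 0 of 26 in replicate 1 and 2 of 59 in replicate 2. A match describes letters and not a binding site.

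By isotype, tRNA genes were reached in both replicates most often for tRNA-Cys (6 of 13, 46.2%), tRNA-Gln (8 of 27, 29.6%) and tRNA-Arg (10 of 44, 22.7%). The share over all tRNA genes was 13.9%, and over all nuclear genes 16.0%. The lowest shares were 0 of 12 for tRNA-Trp and 0 of 1 for tRNA-Sec. Low shares were also seen for tRNA-Glu (2 of 41, 4.88%), tRNA-His (1 of 20), tRNA-Leu (2 of 39, 5.13%) and tRNA-Ala (2 of 34, 5.88%). These are the extremes of a ranking, the counts are small and no interval was computed by isotype. Neighbouring genes can share a region, so no isotype is set apart from the others. Of the 44 tRNA-Arg genes, 27 lie on X. Of all tRNA genes, 469 have an identical copy (76.6%), and of those reached in both replicates 70 of 85 do (82.4%).

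snoRNA regions stood out in replicate 2, where they made up 8 of the 16 small RNA regions among the 100 strongest. F55A11.10, inside the coding gene F55A11.6, ranked 112 in replicate 1 (signal value 20.9) and 147 in replicate 2 (19.6). Y43B11AR.7, inside the ribosomal protein gene rps-4, ranked 159 (19.9) and 13 (29.1). At both of these genes a protein-coding start lay within 500 bp of the summit in each replicate. The summits at Y43B11AR.7 lay 248 bp from the gene in replicate 1 and 482 bp from it in replicate 2. That replicate 2 summit was not inside a region of replicate 1, whereas the summit of another replicate 2 region there, ranked 24, was. F25H2.15, outside coding genes on chromosome I, ranked 372 (17.9) and 33 (24.2). C51F7.3 and C51F7.4, neighbours inside frm-7, shared a region that ranked 131 (20.5) and 442 (16.9). These loci, with smy-2 (461 and 86), were within the 500 strongest of both lists. At smy-2, however, the ranks belong to separate regions on different sides of the gene. The summit lay 312 bp after the gene in replicate 1 and 375 bp before it in replicate 2.

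snoRNA genes inside and outside coding genes were reached at shares with overlapping intervals. Of 183 snoRNA genes on the same strand within a protein-coding gene, 28 were reached in both replicates (15.3%), of 33 on the other strand 8 (24.2%, 11 to 42.3%) and of 130 outside coding genes 18 (13.8%, 8.42 to 21.0%). TGATGA was present in 51 of the 346 snoRNA genes (14.7%), in 16 of the 54 reached in both replicates (29.6%) and in 21 of the 174 reached in neither (12.1%). Among the 172 reached in either replicate, which include the 54, it was present in 30 (17.4%). These counts are small, and the difference was not tested. On autosomes the snoRNA regions had medians of 65.9 in replicate 1 and 77.1 in replicate 2, and the 7 and 14 regions on X had 45.2 and 51.0, with wide intervals (0.339 to 94.0 and 30.8 to 67.9).

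Among miRNA genes, mir-52 stood alone. Its strongest regions ranked 60 in replicate 1 (signal value 22.5) and 10 in replicate 2 (30.7), but the 2 summits lay on different sides of the gene, 118 bp before it and 157 bp after it. At mir-84, mir-45 and mir-785, but not at mir-71, the strongest summits also lay on different sides of the gene. mir-84 ranked 1124 and 3990, mir-71 238 and 4865, mir-45 5167 and 532, and mir-785 5444 and 6893. mir-52 was thus the only miRNA gene within the 1000 strongest of both lists. Its seed, ACCCGTA, is shared with mir-51, mir-53, mir-54, mir-55 and mir-56, and of these 6 genes 5 were reached in replicate 1 and 1, mir-52, in replicate 2. The seed of mir-84, GAGGTAG, is that of let-7 and 3 other genes, and of the 5 only mir-84 was reached in both. let-7 and lin-4, which time the larval stages, had no summit within 500 bp in either replicate, and lsy-6, which acts in the left-right difference of taste neurons, had 1 in replicate 2 at rank 23427.

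Genes reached by both replicates were mostly not at the top of both lists. Of the 177, 4 were among the 100 strongest in both (sls-2.4, sls-2.1, C18A11.t2 and mir-52), 15 among the 500 strongest and 18 among the 1000 strongest. These 18 lie at 16 loci. They comprised 5 tRNA, 9 snoRNA, 3 snRNA and 1 miRNA genes. Of the 177, 53 were among the 5000 strongest in both lists.

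**Figure D4:**
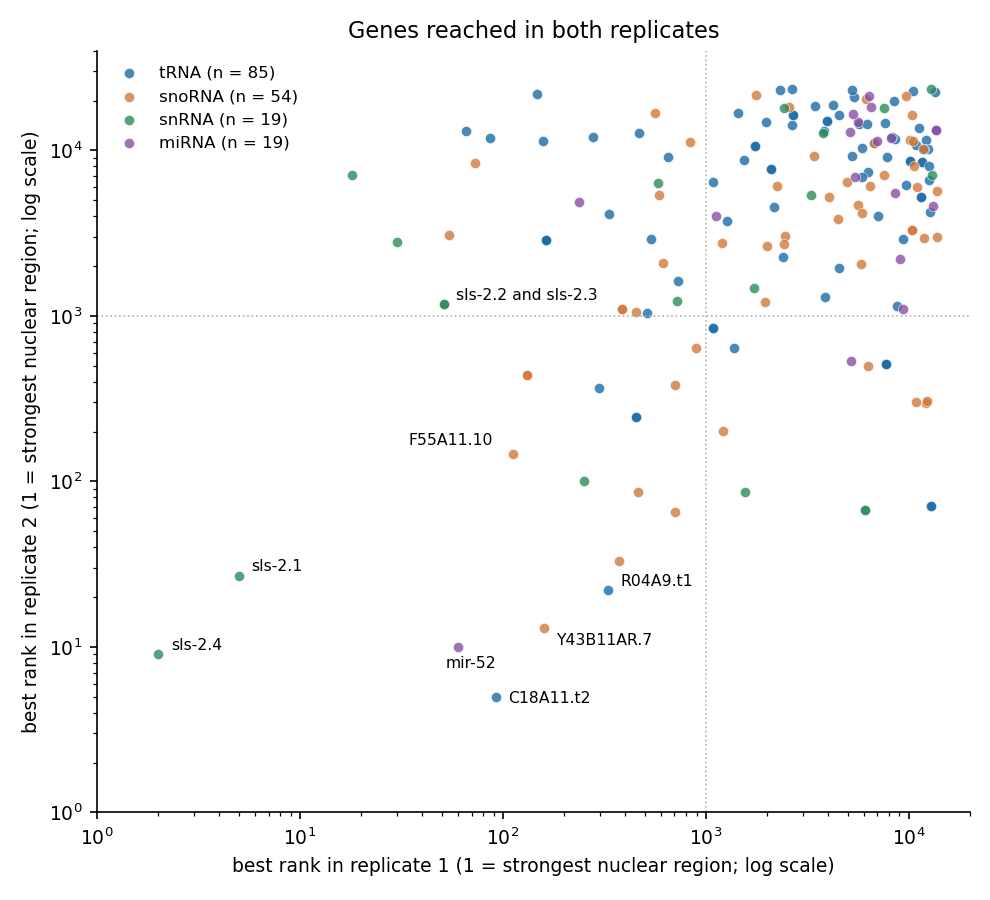
Best rank of the regions within 500 bp of each of the 177 small RNA genes reached in both replicates, in replicate 1 (horizontal axis) and replicate 2 (vertical axis), on log scales with 1 the strongest; dotted lines mark rank 1000, and each point is a gene, coloured by biotype. sls-2.4 (ranks 2 and 9), sls-2.1 (5 and 27), mir-52 (60 and 10) and C18A11.t2 (92 and 5) lie nearest the strong corner, and 18 of the 177 lie within rank 1000 in both.

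Summits lay on both sides of the genes. Counted per gene and region, 44.9% lay upstream of the gene in replicate 1, 13.1% inside it and 42% downstream, and in replicate 2 43.3, 12.1 and 44.6%. The median position was 36 bp after the gene start in replicate 1 and 44 bp in replicate 2. snRNA genes had more summits downstream, with 57.1% in replicate 1 and 57.8% in replicate 2. At sls-2.4 the summits lay 172 and 175 bp after the start, 63 and 66 bp beyond the end of the gene. At sls-2.1 they lay 59 bp before the start in replicate 1 and 63 bp after it, inside the gene, in replicate 2.

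Signal did not fall evenly with distance. Regions with a summit 1 to 100 bp from a gene had a median percentile of 74.5 in replicate 1 (n = 107) and 67.3 in replicate 2 (n = 123). Just inside the window, at 401 to 500 bp, the medians were 48.4 (n = 32) and 56.7 (n = 60), and just outside, at 501 to 600 bp, 63.1 (n = 45) and 60.5 (n = 53). At 1001 to 2000 bp they were 51.4 and 48.4, near the 49.7 of other regions. At 201 to 300 bp they were 70.5 and 69.3, and the intervals of neighbouring bins overlap.

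**Figure D5:**
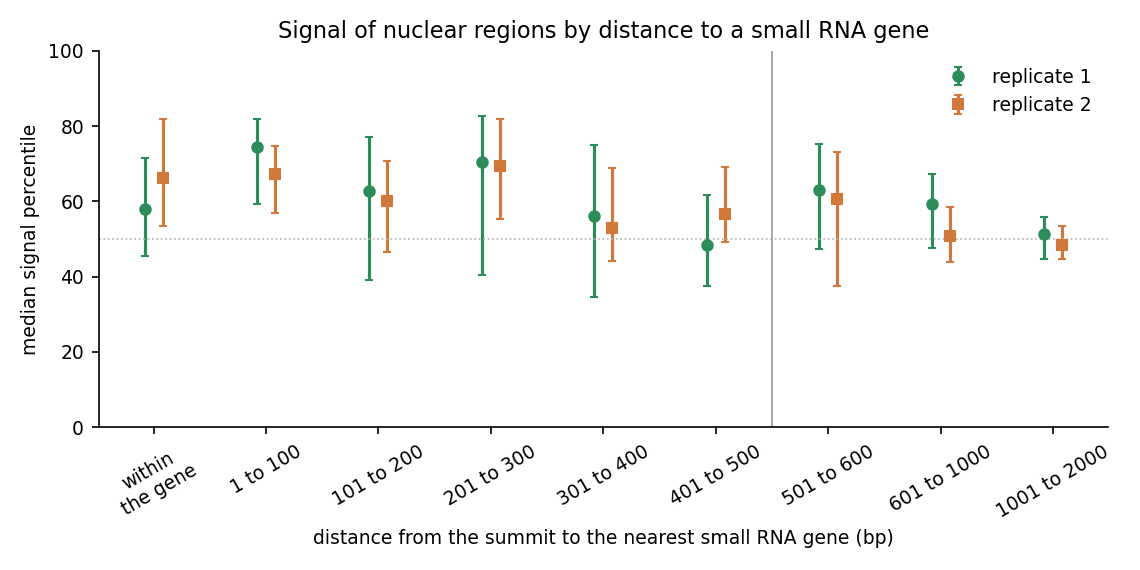
Median signal percentile of nuclear regions (vertical axis, 100 is the strongest) by distance in bp from the summit to the nearest small RNA gene (horizontal axis), with 95% order-statistic intervals; the solid line marks the 500 bp rule and the dotted line 50. Regions 1 to 100 bp away have medians of 74.5 in replicate 1 and 67.3 in replicate 2, and those 1001 to 2000 bp away 51.4 and 48.4.

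The authors' lists over both replicates also held regions at these genes. The pooled list, like the replicate lists, holds peaks and background alike. The deposited q of its regions at these genes ran from 0.0492 to 0.954. Of the 190 nuclear regions of the pooled list, 33 lay at small RNA genes (17.4%), at 42 genes, with 13 regions at snoRNA, 10 at tRNA, 8 at snRNA and 2 at miRNA genes. Of the 32 nuclear peaks of the optimal list, past the IDR threshold, 7 did (21.9%), at sls-2.4, sls-2.1, F25H2.15, Y43B11AR.7, the pair C51F7.3 and C51F7.4, R04A9.t1 and C18A11.t2. These lists rest on the same reads as the replicate lists and are not independent of them. All 10 pooled tRNA regions except 1, at Y82E9BR.t1, were on X.

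Genes for proteins that make or use these RNAs were also examined. From a list of 51 genes, for the small nuclear RNA activating complex and polymerase III, trans-splicing and snRNP proteins, snoRNP and miRNA proteins and aminoacyl-tRNA synthetases, 50 were found in the annotation, and 5 had a summit of both replicates within 500 bp of a coding transcript start, against 6.68% of all 19973 protein-coding genes. These were the Sm protein gene snr-6 (ranks 13093 in replicate 1 and 15718 in replicate 2), the Argonaute gene alg-2 (2337 and 5135), and the tRNA synthetase genes rars-1 for arginine (1390 and 9919), lars-1 for leucine (7070 and 3557) and fars-1 for phenylalanine (4156 and 17773). None of the 5 was among the 1000 strongest in either list.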

How the data were processed

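Regions came from ChIP-seq of 2 biological replicates of L3 larvae with a size range of 150 to 350 bp per the labels. The lists are on ce11, in narrowPeak form, and were called against control alignments, per the text deposited with the samples. The aligner, caller, IDR threshold and read length are not stated there. The deposited signal value is a score of the authors' caller and was ranked only within its own list. The deposited q-value (−log10) was converted to q, and the summit offset was added to the start. No other unit was used, and lists on ce10 were not used.

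Genes and biotypes came from Ensembl release 115 (WBcel235), symbols, tRNA isotypes, mature miRNAs and sequence from RefSeq of the same assembly: all 1368 genes matched by WormBase ID, and 260 of 261 miRNA genes had a mature product. Mitochondrial regions (30 and 23) were left out. Intervals are 95% exact Clopper-Pearson, or order-statistic for medians, with scipy 1.17.1, pandas 2.3.3 and Biopython 1.88. The distance search was tested on simulated summits. The named genes are those at optimal peaks, the spliced leader genes and the 5 best-ranked in both replicates per biotype, the rRNA genes, let-7, lin-4, lsy-6, and, from the list of proteins, genes reached in both. The word CGCAGGGA came from an earlier result on X peaks. Members and lists were chosen with earlier results of these data known. 1 named snRNA gene is not reported here.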

Additional observations from a re-analysis of the deposited data

How the results depend on the processing

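The 4 results on rank kept within their intervals under all 5 alternatives (windows of 250 and 1000 bp, overlap of region and gene, autosomes only, rank by q-value), with shares of 16.3 to 22.8% and medians of 61.7 to 67.2 in replicate 1 and shares of 7.96 to 12.5% and medians of 58.9 to 64.5 in replicate 2. Rank by q-value gave the reported values again. The band of 36 to 42% GC, not among these alternatives, gave a replicate 1 share of 9.41%, below the interval of 14.4 to 23.3%. In that band the replicate 2 share (10.1%) and the medians (61.7 in replicate 1 and 61.3 in replicate 2) stayed within their intervals. Counts of genes reached in both replicates depended on the settings. With a window of 250 bp they were 110 in all, 32 snoRNA and 6 miRNA genes, and with 1000 bp 326 in all, 158 tRNA, 93 snoRNA and 49 miRNA. With overlap they were 92 in all, 46 tRNA, 30 snoRNA, 10 snRNA and 6 miRNA. With the 10000 strongest regions of each list they were 91 in all, 36 tRNA, 33 snoRNA and 8 miRNA. On autosomes alone, tRNA genes numbered 38 and miRNA genes 11. Counting loci gave 151 in all. Each setting admits fewer or more positions, regions or chromosomes by construction. Other genes up to 200 bp moved with the settings, to 2.06% at 250 bp (8.04% of small RNA genes) and 13.6% at 1000 bp (23.8%). Using 1 list gave 353 to 487 genes in all, 182 to 234 tRNA, 86 to 140 snoRNA, 25 to 54 snRNA, 58 to 60 miRNA and 0 to 1 rRNA. No paired analysis was possible because the study has 1 group. With no counts the depth of the lists is unknown, so the difference in length between the 2 lists, and the replicate in which a gene was missed, cannot be read as binding.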
